A study of Mus musculus with 4 samples.

Results

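The rodent LINE-1 (L1) subfamilies were followed in mouse embryonic stem cells (ESCs) with and without the kinase gene Pim3. The members were the subfamilies of the transposable element (TE) count table whose RepeatMasker names begin with L1Md, L1VL, L1_Mu, L1_Rod or Lx, which made 38 of the 1072 subfamilies in the table. The rule uses the names and no measured value. The 38 members fell into 6 L1Md, 3 L1VL, 4 L1_Mus, 3 L1_Mur, 1 L1_Rod and 21 Lx subfamilies. Of all subfamilies 828 passed the filter on low counts, and the 38 members were all among them, the lowest count of a member in any library being 32.

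L1 elements are retrotransposons that spread by copying their RNA into the genome. A full-length copy has an internal promoter and encodes an RNA-binding protein and a protein with endonuclease and reverse transcriptase activity. The L1Md_A, L1Md_T and L1Md_Gf subfamilies of the mouse are young and hold the copies that can still move, while L1Md_F and the L1VL, L1_Mus, L1_Mur and Lx subfamilies are older and consist mainly of truncated and mutated copies. In ESCs young L1 copies are held back by DNA methylation, by H3K9 methylation set by SETDB1 and the HUSH complex, and by proteins that act on their RNA. L1 RNA is also part of normal ESC biology, where it binds nucleolin and TRIM28 and helps to keep the 2-cell-like (2C) programme silent.

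The study asked how PIM3 controls the 2C marker MuERVL and the 2C-like state of ESCs. By quantitative PCR the paper reported that MuERVL, LINE1 and some other repeats were upregulated after loss of Pim3. That LINE1 assay was not assigned to a subfamily here. The main values below are relative to other TEs, so they cannot be set directly against it. RNA-seq libraries were made from 2 wild type (WT) and 2 Pim3-/- samples of E14 ESCs, a mouse line whose strain is labelled 12910la, and the labels name no other genetic change. All cells were grown on gelatin in medium with serum and LIF (a cytokine that prevents differentiation), and no other treatment is stated for these libraries. The Pim3-/- samples were 2 clones made with CRISPR/Cas9 and guides to exons 4 and 6 of Pim3, and which replicate number stands for which clone was not given in the sources used here. A clone is a single derived line, so the loss of Pim3 and other differences between these clones and the WT cultures cannot be told apart.

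The TE table held between 546500 and 821065 counts per library and the gene table between 22029427 and 25668307. TE counts per 100 gene counts were 2.36 and 2.65 in WT and 3.59 and 3.67 in Pim3-/- ESCs. Pim3 itself had 4392 and 4953 counts in WT against 4970 and 4804 counts in the libraries labelled Pim3-/-, so its count per gene does not test the labels. The libraries of a group differed by more than sampling noise, with a chi-square per degree of freedom over all TEs of 3.53 for the WT pair and 10.4 for the Pim3-/- pair, and each was counted as 1 replicate. The WT samples are described as separate biological samples of 1 line, so p-values measure the spread between these cultures and clones. The pluripotency gene Pou5f1 was abundant in each library and had 45110, 48413, 29466 and 24659 counts in WT replicates 1 and 2 and Pim3-/- replicates 1 and 2. Its counts were thus lower in both Pim3-/- libraries than in both WT libraries.

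A member's count adds up the reads on all its genomic copies. Copy number and length were not used, so the order of counts is not an order of levels per copy. Single loci were not analysed here. The treatment of reads that match several places, and whether the strand was used, were not given in the sources used here. Near-identical young subfamilies, and L1 copies that lie inside longer transcripts, are therefore uncertain. Values in CPM (counts relative to the total of the TE table, scaled with TMM factors) compare libraries for 1 subfamily. Log2 fold changes are Pim3-/- over WT and come with their standard error (SE) and with p-values of edgeR's quasi-likelihood test adjusted by Benjamini-Hochberg over the 828 TEs. No permutation test of single values is given, since with 2 libraries in each group the smallest two-sided p of an exact one is 0.333.

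As a group the rodent L1 subfamilies moved little against the other TEs of the same libraries, and 2 of them, the young L1Md_A and the older Lx2A, were higher in Pim3-/- ESCs. None passed the test in the lower direction. By edgeR 28 of all 828 TEs (3.38%) were higher and 44 (5.31%) lower, so that 2 of 38 and 0 of 38 lie near the background. At an unadjusted p under 0.05 in edgeR, 4 members were higher and 5 lower, against 104 (12.6%) and 111 (13.4%) of all TEs. At the adjusted p of DESeq2, 1 member was higher and 0 lower, against 15 (2.1%) and 34 (4.76%) of the 715 TEs that it adjusted. Leaving out WT replicate 1 or WT replicate 2 left 0 calls among all TEs. Leaving out Pim3-/- replicate 1 gave 3 members higher and 4 lower, with 68 and 94 of 848 TEs, and added Lx6 as higher and L1_Mus1, L1Md_F, Lx3B and Lx2B as lower. Leaving out Pim3-/- replicate 2 gave 6 higher and 2 lower, with 54 and 80 of 837 TEs, and added L1Md_F3, L1Md_Gf, Lx3_Mus and Lx3C as higher and L1_Mus1 and Lx5b as lower. Calls of fits with a library left out are not comparable with the main ones, as the lone library was assumed to vary like the other group. In bulk RNA, fewer cells of a type and less RNA per cell cannot be told apart.

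The median log2 fold change was -0.03 over the 38 members and 0.01 over all TEs, with members ranging from -0.45 to 1.02. The change lay within 0.25 of 0 for 24 of the 38 members, against 370 of all 828 TEs. CPM of both Pim3-/- libraries lay above both WT libraries for 11 members and below them for 14, and the groups overlapped for 13. Over all TEs the corresponding shares were 29.2% above and 29.1% below. Replicates lay close together for these well-counted elements. The median gap between the WT libraries was 0.08 on the log2 scale for members and 0.20 for all TEs, and that between the Pim3-/- libraries 0.12 and 0.21.

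**Figure D1:**
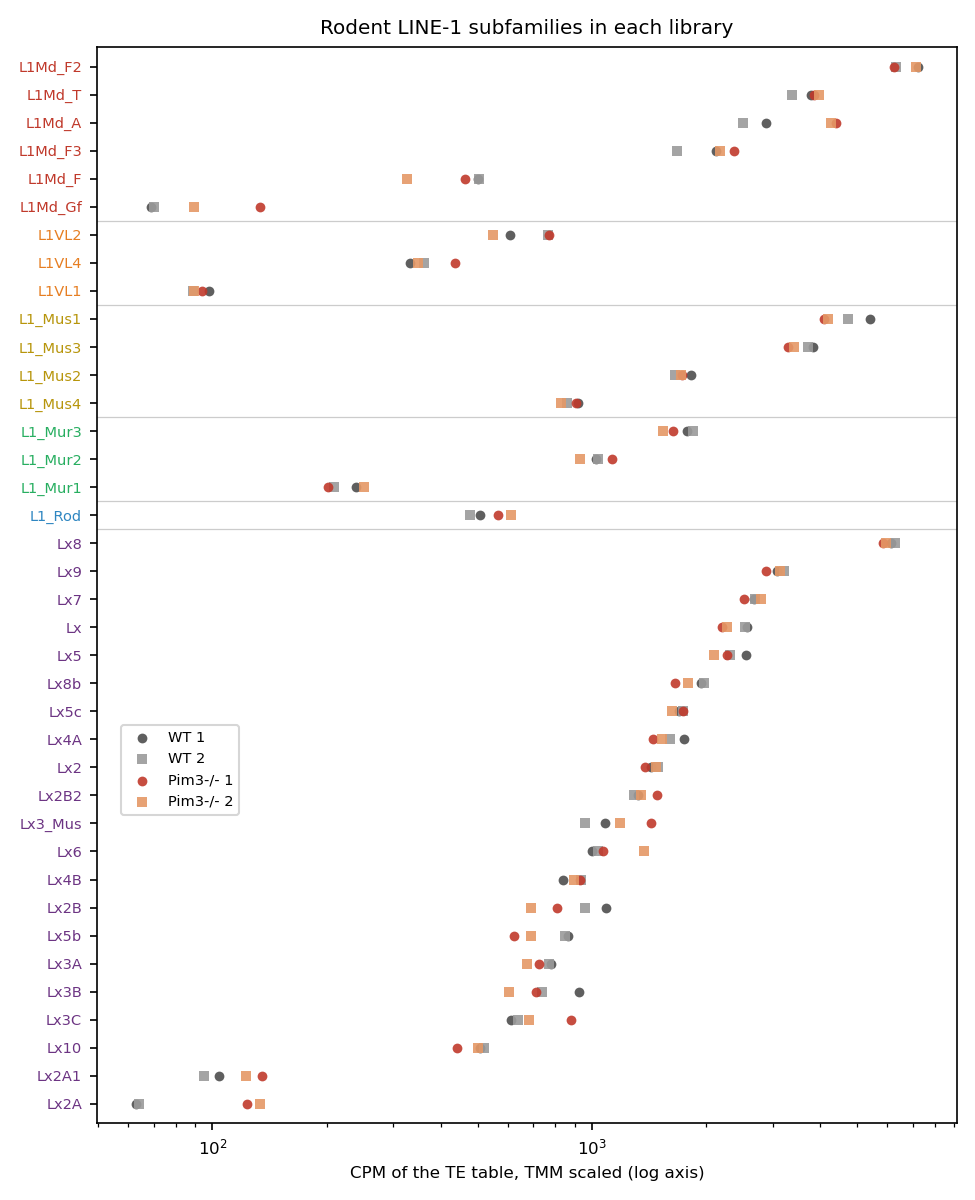
Level of each of the 38 rodent L1 subfamilies in the 4 libraries, in CPM of the TE table on a log axis, with subfamilies ordered by class and, within a class, by total counts. Circles are replicate 1 and squares replicate 2, grey for WT and red or orange for Pim3-/-. The groups stand clear of each other for L1Md_A (2500 and 2874 against 4277 and 4408 CPM) and Lx2A. They overlap for 13 of the 38 subfamilies and lie a small gap apart for most of the others.

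The direction of small changes depends on what the libraries are scaled to. The median of all TEs shifted upward by 0.26 on the log2 scale with the factors of the gene table, by 0.18 with TE totals and by 0.71 with gene totals. Members above 0 numbered 15 of 38 with the TE table's own factors, 31 with TE totals, 33 with the factors of the gene table and 38 with gene totals. Set against the median of all TEs, 14 members lay above it and 24 below. The values that follow use the TE table's own factors and are thus changes relative to the bulk of TEs, unless the gene table is named. Ratios of 2 subfamilies within a library do not depend on the scaling at all.

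Among the 3 youngest subfamilies L1Md_A rose, while L1Md_T and L1Md_Gf did not pass the test. L1Md_A, whose promoter is made of repeated monomers of the A type, had 1464 and 1604 counts in WT against 3760 and 3772 in Pim3-/- ESCs. After scaling this was 2687 CPM ± 265 (SD, n = 2) in WT and 4342 CPM ± 92.5 (SD, n = 2) in Pim3-/- ESCs. Both Pim3-/- libraries stood well above both WT libraries, the lower of them 1.49-fold above the higher WT value. The log2 fold change was 0.69 (SE 0.09, 95% interval 0.49 to 0.90), which is 1.62-fold, with an adjusted p of 0.00287 by edgeR. Its p-value ranked 11 of 828, while its fold change ranked 83. With the factors of the gene table its log2 fold change was 0.96. Without WT replicate 1 or without WT replicate 2 edgeR called 0 TEs in all, with 3 and 2 members higher and 0 and 3 lower at an unadjusted p under 0.05, and the adjusted p of L1Md_A rose to as much as 0.296, while its log2 fold change stayed between 0.58 and 0.81 in the fits that left out 1 library.

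L1Md_T, the most abundantly counted of the young subfamilies in WT, had 1931 and 2165 counts in WT against 3276 and 3500 in Pim3-/- ESCs. In CPM both Pim3-/- libraries lay above the WT libraries, but by a narrow margin, with 3374 and 3790 in WT against 3840 and 3968. Its log2 fold change was 0.12 (SE 0.08, 95% interval -0.07 to 0.32, adjusted p = 0.375 by edgeR). The interval ends below that of L1Md_A begins.

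L1Md_Gf, also a subfamily with movable copies, was thinly counted, with 35 and 45 counts in WT against 114 and 79 in Pim3-/- ESCs. The WT libraries nearly coincided at 68.7 and 70.1 CPM, and the Pim3-/- libraries lay above them and apart from each other, at 134 and 89.6 CPM. The log2 fold change was 0.68 (SE 0.28, 95% interval 0.05 to 1.32), close to that of L1Md_A in size but with an adjusted p of 0.172 by edgeR. Leaving out Pim3-/- replicate 2 raised it to 0.94 and leaving out Pim3-/- replicate 1 reduced it to 0.36, so its size rests on replicate 1.

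The older subfamilies L1Md_F, L1Md_F2 and L1Md_F3, here called F-type by their names, showed no call. L1Md_F2 had the most counts of all members, with 3683, 4055, 5342 and 6292 in WT replicates 1 and 2 and Pim3-/- replicates 1 and 2. Its groups overlapped in CPM, at 6774 ± 644 (SD, n = 2) and 6698 ± 617 (SD, n = 2), with a log2 fold change of -0.02 (SE 0.09, 95% interval -0.23 to 0.19, adjusted p = 0.929 by edgeR). L1Md_F had the lowest value of the class. It had 256, 324, 395 and 287 counts, which after scaling were 503 and 505 CPM in WT and 463 and 325 CPM in Pim3-/- ESCs. Its log2 fold change of -0.35 (SE 0.18, adjusted p = 0.237 by edgeR) did not pass. It was -0.64 without Pim3-/- replicate 1 and -0.12 without Pim3-/- replicate 2. The remaining member L1Md_F3, named here after its values were seen, had a log2 fold change of 0.26 (SE 0.12, adjusted p = 0.213 by edgeR). This lay above the 0.12 of the young L1Md_T. The median log2 fold change was 0.68 over L1Md_A, L1Md_T and L1Md_Gf and -0.02 over the 3 F-type subfamilies, and over all 6 L1Md it was 0.19. The 0.68 is the value of L1Md_Gf, and without Pim3-/- replicate 1 that median was 0.36. Without WT replicate 2 the median over all 6 was 0.059 and without WT replicate 1 it was 0.34.

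**Figure D2:**
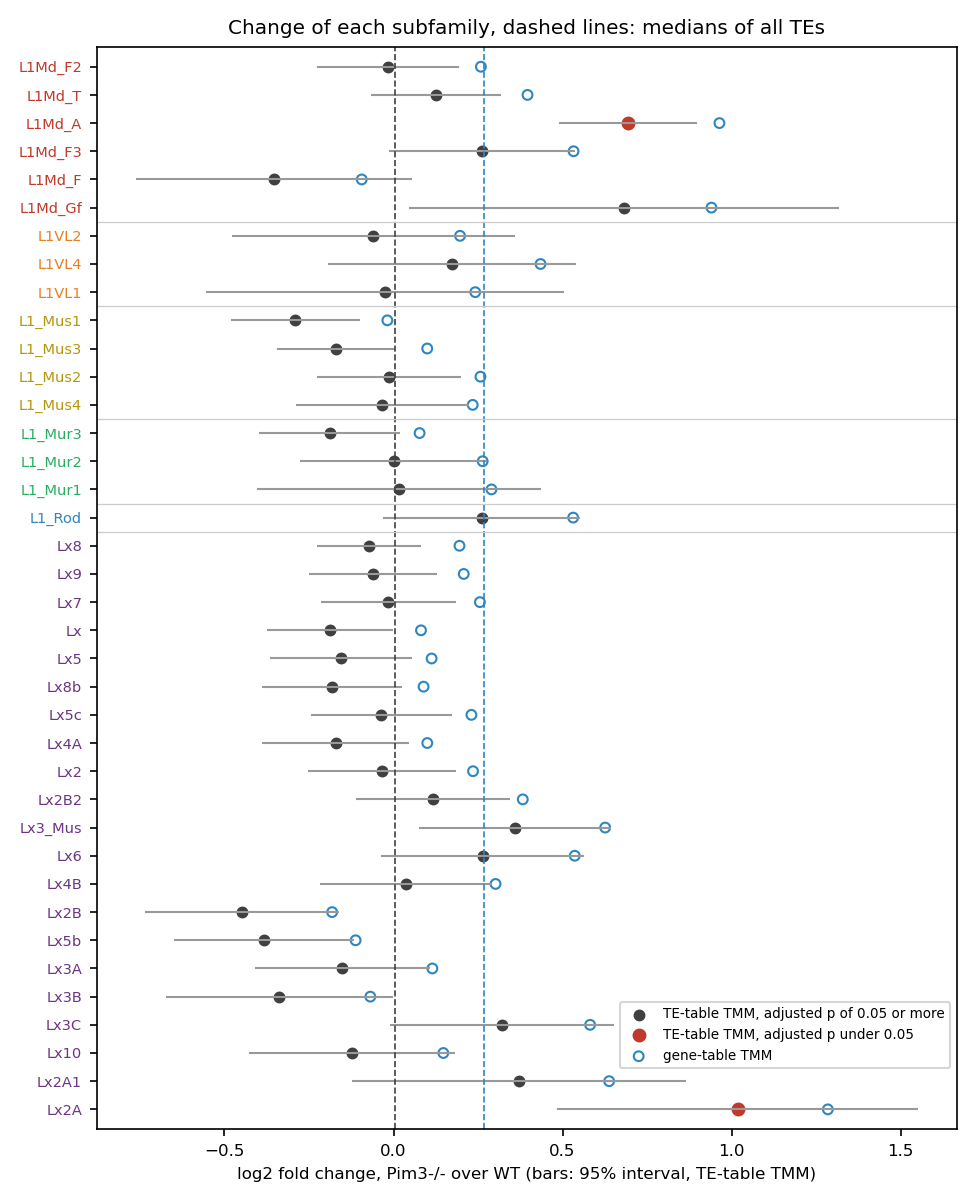
Log2 fold change of each rodent L1 subfamily, Pim3-/- over WT. Filled points with 95% intervals use the TE table's own factors, red where the adjusted p of edgeR was under 0.05. Open blue points use the factors of the gene table, and dashed lines mark the medians of all TEs, 0.01 and 0.27. L1Md_A and Lx2A stand to the right of both lines, and the change of scaling moves each point by a similar amount.

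The 3 L1VL subfamilies, older relatives of L1Md, overlapped between the groups without exception. L1VL4, the highest, had 169, 232, 371 and 307 counts in WT replicates 1 and 2 and Pim3-/- replicates 1 and 2, with a log2 fold change of 0.17 (SE 0.16, adjusted p = 0.526 by edgeR). L1VL2, the lowest, had 310, 491, 659 and 484 counts and a log2 fold change of -0.06 (SE 0.18, adjusted p = 0.864 by edgeR). The replicates of L1VL2 disagreed more than the groups did, by -0.33 on the log2 scale between the WT libraries and by 0.49 between the Pim3-/- libraries. The class median was -0.02.

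The 4 L1_Mus subfamilies, named for the genus Mus, all had log2 fold changes below 0 with the TE table's own factors, and none passed the test. L1_Mus1 had 2752 and 3044 counts in WT against 3493 and 3706 in Pim3-/- ESCs. Relative to other TEs this was 5073 CPM ± 466 (SD, n = 2) against 4148 CPM ± 75.9 (SD, n = 2). Both Pim3-/- libraries thus lay below both WT libraries, with a log2 fold change of -0.29 (SE 0.08, 95% interval -0.48 to -0.10) and an adjusted p of 0.0728 by edgeR, which misses the threshold. L1_Mus3 had 1951, 2378, 2797 and 3014 counts and a log2 fold change of -0.17 (SE 0.08, adjusted p = 0.202 by edgeR), with the Pim3-/- libraries below the WT libraries as well. L1_Mus2, the highest of the class, overlapped between the groups at -0.01 (SE 0.09, adjusted p = 0.943 by edgeR). With the factors of the gene table L1_Mus1 came to -0.02 and L1_Mus3 turned to 0.10, both below the 0.27 of all TEs.

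The 3 L1_Mur subfamilies and L1_Rod, named for murine rodents and for rodents, did not pass the test either. L1_Mur3 was the lowest, with 905, 1182, 1392 and 1361 counts and a log2 fold change of -0.19 (SE 0.09, adjusted p = 0.229 by edgeR). L1_Mur1 was the highest at 0.02 (SE 0.18, adjusted p = 0.96 by edgeR), from 122, 134, 172 and 221 counts. L1_Rod had 259 and 306 counts in WT against 483 and 541 in Pim3-/- ESCs. Its Pim3-/- libraries lay above the WT libraries in CPM, at 566 and 613 against 477 and 508, with a log2 fold change of 0.26 (SE 0.13, 95% interval -0.03 to 0.55, adjusted p = 0.231 by edgeR).

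The Lx subfamilies are old murine L1 elements, and 1 of the 21, Lx2A, was higher in Pim3-/- ESCs. Lx2A had 32 and 41 counts in WT against 105 and 118 in Pim3-/- ESCs, which were 63.4 CPM ± 0.761 (SD, n = 2) and 128 CPM ± 7.57 (SD, n = 2). Replicates nearly coincided within each group, which at such low counts is not a measure of precision. The lower Pim3-/- library was 1.93-fold above the higher WT library. The log2 fold change of 1.02 (SE 0.23, 95% interval 0.48 to 1.55), or 2.02-fold, was the highest of the 38 members and ranked 40 of 828, with an adjusted p of 0.0339 by edgeR. The call rests on few reads. It was lost with the Wald test of DESeq2, at an adjusted p of 0.0878, and without WT replicate 1 or WT replicate 2, at up to 0.391, although the log2 fold change stayed between 0.95 and 1.07 with any library left out.

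Other Lx subfamilies moved by less, in both directions. Lx8, with the most counts of the class, had 3129, 4037, 5001 and 5254 counts in WT replicates 1 and 2 and Pim3-/- replicates 1 and 2. Its log2 fold change was -0.07 (SE 0.07, 95% interval -0.23 to 0.08, adjusted p = 0.523 by edgeR), the smallest SE of the members. Lx2B had the lowest value of the 38 members, with 554, 616, 689 and 610 counts. In CPM it stood at 1024 ± 90.2 (SD, n = 2) in WT and 750 ± 82.0 (SD, n = 2) in Pim3-/- ESCs, and its log2 fold change of -0.45 (SE 0.13, 95% interval -0.74 to -0.16, adjusted p = 0.0657 by edgeR) missed the threshold. Lx2A and Lx2B thus bear related names and took opposite ends of the range. Counts of Lx2A per count of Lx2B were 0.0578 and 0.0666 in WT and 0.152 and 0.193 in Pim3-/- ESCs. As these are the highest and lowest members, their ratio had to separate the groups and adds no evidence. The log2 fold changes of Lx2, Lx2A1 and Lx2B2, also related in name, were -0.03, 0.37 and 0.12.

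Over the 21 Lx subfamilies the median log2 fold change was -0.06, with 7 above 0 and 14 below. The Pim3-/- libraries lay above the WT libraries for 6, below them for 10, and overlapped for 5. Beside Lx2A the 6 were Lx2A1, Lx2B2, Lx3_Mus, Lx3C and Lx6, listed after their values were seen, with log2 fold changes from 0.12 for Lx2B2 to 0.37 for Lx2A1. The largest negative values after Lx2B were -0.38 for Lx5b and -0.34 for Lx3B, also chosen after their values were seen.

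**Figure D3:**
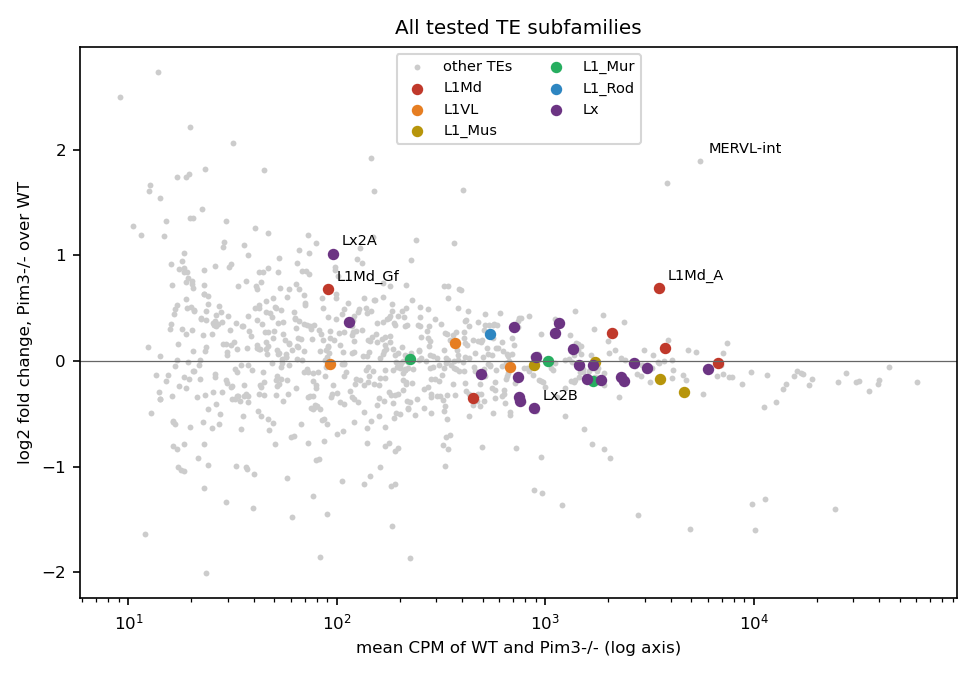
Log2 fold change against mean CPM of the TE table (log axis) for all tested TE subfamilies, with other TEs in grey and the 6 classes of rodent L1 in colour. Most rodent L1 subfamilies sit close to 0, and Lx2A and L1Md_Gf lie higher at fewer counts. L1Md_A lies above the other well-counted rodent L1 subfamilies and ranks 83 of all 828 TEs by fold change. MERVL-int stands at 1.89.

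For comparison, the ancient L1 subfamilies that mice share with other mammals had a median log2 fold change of 0.02 over the 79 tested, of which 0 were called higher and 3 lower by edgeR, with 2 higher and 6 lower at an unadjusted p under 0.05. L1_Mm, a mouse L1 name outside the rule, had 261, 315, 450 and 501 counts and a log2 fold change of 0.13 (SE 0.13, adjusted p = 0.558 by edgeR). MERVL-int, the internal part of MuERVL, rose in the same libraries from 1132 and 1584 to 8868 and 6194 counts, a log2 fold change of 1.89 (SE 0.16, adjusted p = 2.65e-04 by edgeR). MERVL-int was higher in Pim3-/- replicate 1 than in replicate 2, by 0.57 on the log2 scale. L1Md_A differed by 0.04 between these replicates and by 0.20 between the WT replicates. A relation between the 2 elements was not tested.

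The balance of the L1Md and Lx classes was then read within each library. It is not a split of young from old, as L1Md includes the older F-type subfamilies. Over all libraries L1Md_F, L1Md_F2 and L1Md_F3 held 0.683%, 10.5% and 3.30% of the rodent L1 counts. L1Md_A, L1Md_T and L1Md_Gf held 5.73%, 5.88% and 0.148%. Rodent L1 made up 6.17% (95% Wilson interval 6.10% to 6.23%) and 5.93% (5.88% to 5.99%) of TE counts in WT, and 6.61% (6.56% to 6.67%) and 6.99% (6.93% to 7.04%) in Pim3-/- ESCs. These intervals cover counting error only. The share of ancient L1 was higher as well, at 2.59% and 2.71% in WT and 2.82% and 3.02% in Pim3-/- ESCs. Such shares are relative to TE totals. With that scaling the median log2 fold change was 0.16 over the members and 0.19 over all TEs. L1Md made up 25.1% and 23.0% of the rodent L1 counts in WT against 27.5% and 28.1% in Pim3-/- ESCs, higher in both Pim3-/- libraries. Lx made up 49.9% and 52.0% in WT and 49.2% and 49.3% in Pim3-/- ESCs. L1_Mus went from 18.1% and 17.4% to 15.7% and 15.9%, lower in both Pim3-/- libraries.

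**Figure D4:**
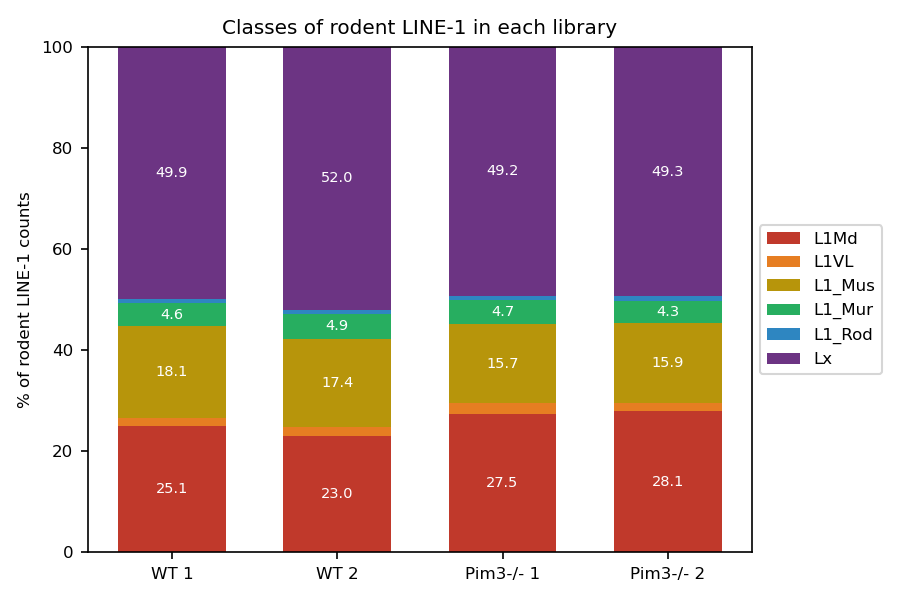
Classes of rodent L1 as percent of the rodent L1 counts of each library, stacked to 100%, with shares over 4% printed. L1Md takes 25.1% and 23.0% in the WT and 27.5% and 28.1% in the Pim3-/- libraries, and L1_Mus takes less in the latter.

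The ratio of L1Md to Lx counts was 0.503 and 0.441 in WT and 0.558 and 0.569 in Pim3-/- ESCs. On the log2 scale the mean difference was 0.26, while the WT libraries alone lay at -0.99 and -1.18. Without L1Md_A the ratios were 0.416 and 0.365 in WT and 0.417 and 0.434 in Pim3-/- ESCs, so that WT replicate 1 and Pim3-/- replicate 1 were nearly equal and the mean log2 difference dropped to 0.13. As L1Md_A had the highest log2 fold change of its class, leaving it out had to lower the difference. The difference between the medians of the classes, 0.25, ranged from 0.10 without WT replicate 2 to 0.41 without WT replicate 1.

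L1Md_A took a larger part of the L1Md counts in Pim3-/- ESCs. It made up 17.3% of L1Md counts in each WT library and 25.2% and 23.8% in the Pim3-/- libraries. Per count of L1Md_T there were 0.758 and 0.741 counts of L1Md_A in WT against 1.15 and 1.08 in Pim3-/- ESCs. Per count of the old Lx8 there were 0.468 and 0.397 in WT and 0.752 and 0.718 in Pim3-/- ESCs. These differences between the groups exceeded the gap between the replicates of each group. L1Md_A had already been called and L1Md_T and Lx8 had moved little, so such a separation had to follow and adds no evidence. L1Md_F2 per Lx8 was 1.18 and 1.00 in WT and 1.07 and 1.20 in Pim3-/- ESCs. The groups overlapped there, as the small changes of both members foretold. L1Md_T per Lx8 did not overlap, at 0.617 and 0.536 in WT and 0.655 and 0.666 in Pim3-/- ESCs, but the margin was narrow.

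**Figure D5:**
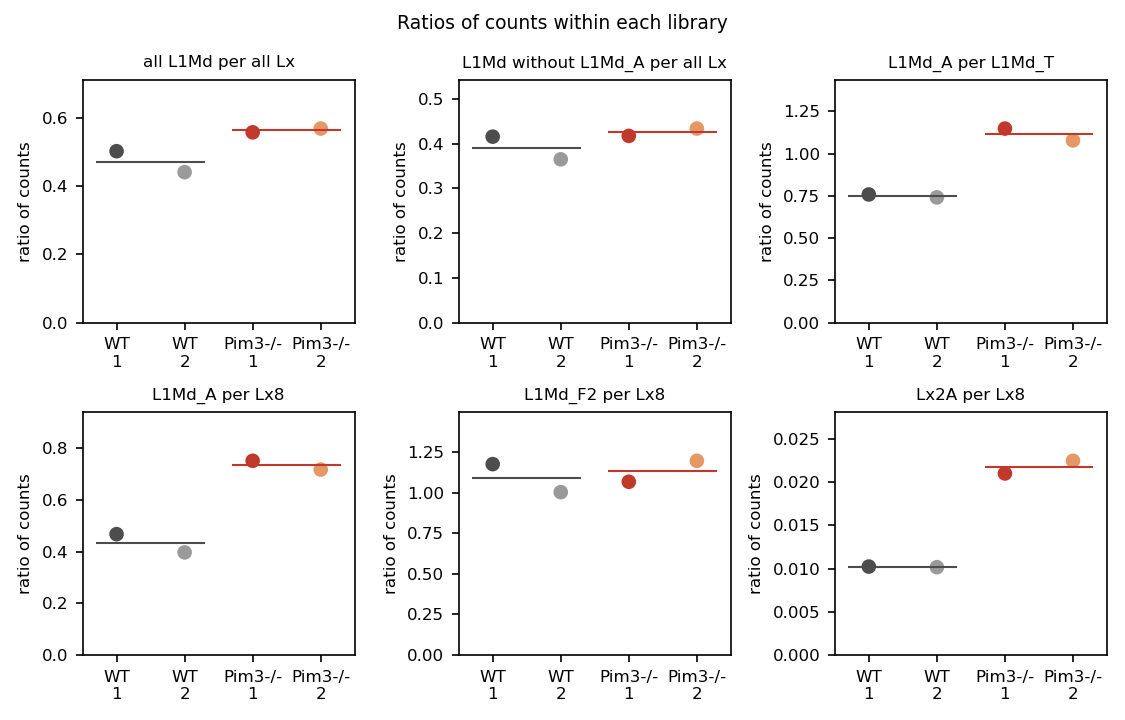
Ratios of counts within each of the 4 libraries, with lines at the group means and axes from 0. The ratios of L1Md_A to L1Md_T and to Lx8, and of Lx2A to Lx8, separate the groups clearly, L1Md to Lx separates them less, without L1Md_A the ratio to Lx nearly meets (0.416 in WT replicate 1, 0.417 in Pim3-/- replicate 1), and L1Md_F2 to Lx8 overlaps.

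Genes known to control L1 were read from the gene table of the same libraries, from a list of 47 genes that were all tested. In Pim3-/- ESCs 8 of them were higher and 9 lower, with a median log2 fold change of -0.04. Over all 18444 genes edgeR called 3246 (17.6%) higher and 2987 (16.2%) lower, with a median of 0.07, so that 8 and 9 of 47 lie near these shares. With totals in place of TMM factors the median of all genes shifted by 0.45 and the list's calls became 18 higher and 1 lower, so that the calls of single genes hold relative to the bulk of genes. Without WT replicate 1 or WT replicate 2 the counts dropped to 2 higher and 1 lower, without Pim3-/- replicate 1 they were 12 higher and 17 lower, and without Pim3-/- replicate 2 they were 14 higher and 16 lower.

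Of the 14 genes of H3K9 methylation and the HUSH complex 0 were called higher and 3 lower, and their median was -0.28. Over all genes the shares were 17.6% higher and 16.2% lower. Those lower were Ehmt2, which encodes an H3K9 methyltransferase, at -0.67 (SE 0.17, adjusted p = 0.0243 by edgeR), and the H3K9 methylation readers Cbx1 at -0.71 (SE 0.18, adjusted p = 0.0215 by edgeR) and Cbx3 at -0.83 (SE 0.18, adjusted p = 0.0145 by edgeR). Each of these had both Pim3-/- libraries below both WT libraries. Trim28, the corepressor with the highest CPM of the group, had 39564 and 46172 counts in WT against 39314 and 27938 in Pim3-/- ESCs and missed the threshold at -0.68 (SE 0.24, adjusted p = 0.0586 by edgeR).

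Of the 6 genes of DNA methylation 2 were lower and 0 higher, beside 16.2% and 17.6% of all genes. The de novo methyltransferase Dnmt3b fell from 2448 and 3559 to 1781 and 1271 counts, a log2 fold change of -1.30 (SE 0.21, adjusted p = 0.00636 by edgeR). The chromatin remodeller Hells fell by 0.96 on the log2 scale (SE 0.17, adjusted p = 0.00822 by edgeR). Dnmt3l, the cofactor of the de novo enzymes and the gene with the highest CPM of the group, had a value of -0.52 (SE 0.19, adjusted p = 0.0667 by edgeR). The Wald test of DESeq2 called Trim28 and Dnmt3l lower, and without the filter on low counts Trim28 alone was called. Neither was called with a replicate block or with totals in place of TMM factors. With totals their log2 fold changes were -0.23 and -0.07. With 1 library left out they ranged from -0.94 to -0.50 for Trim28 and from -0.62 to -0.51 for Dnmt3l.

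Of the 15 genes that act on retrotransposon RNA or restrict retrotransposition 3 were higher and 2 lower, beside 17.6% and 16.2% of all genes. The antiviral RNA-binding protein gene Zc3hav1 rose by 0.98 on the log2 scale (SE 0.21, adjusted p = 0.0132 by edgeR) and Ythdc1, which encodes a reader of methylated RNA, by 0.84 (SE 0.18, adjusted p = 0.0138 by edgeR). The helicase gene Mov10, whose product restricts L1, fell from 3655 and 4511 to 2212 and 3212 counts, with a log2 fold change of -0.91 (SE 0.22, adjusted p = 0.0199 by edgeR). Mettl3, which writes the RNA methylation that Ythdc1 reads, fell by 0.60 (SE 0.15, adjusted p = 0.0225 by edgeR).

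Of the 6 genes of the piRNA pathway, which silences L1 in the germline, 4 were higher and 0 lower, with a median of 1.21. The shares of all genes were 17.6% and 16.2%. Mael rose from 288 and 315 to 975 and 1484 counts, a log2 fold change of 1.70 (SE 0.24, adjusted p = 0.005 by edgeR). Ddx4 rose by 0.73 (SE 0.21, adjusted p = 0.0331 by edgeR). Tdrd1 and Tdrd9 rose by 1.76 (SE 0.48) and 1.86 (SE 0.57) from counts of 8 to 15 in WT, with adjusted p-values of 0.0267 and 0.0412 by edgeR. The call of Tdrd1 was lost with DESeq2, and Tdrd9, at 96 and 33 counts in Pim3-/- ESCs, came to 0.91 without Pim3-/- replicate 1, with an adjusted p of 0.163 by edgeR. Piwil2, which encodes a PIWI protein and has the highest mean CPM of the group over both conditions, though Mael was above it in Pim3-/- ESCs, had a value of 0.45 (SE 0.18, adjusted p = 0.0903 by edgeR).

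Of the 6 genes whose products bind the L1 promoter or L1 RNA 1 was higher and 2 were lower, beside 17.6% and 16.2% of all genes. Runx3, a transcription factor gene, rose from 4 and 1 to 64 and 77 counts, with an adjusted p of 0.005 by edgeR. Ncl, the gene of nucleolin, fell from 20922 and 27029 to 17094 and 14360 counts, a log2 fold change of -0.93 (SE 0.20, adjusted p = 0.0139 by edgeR). L1td1, an ESC gene derived from an L1 element, had 6865 and 8330 counts in WT against 5839 and 6257 in Pim3-/- ESCs and a log2 fold change of -0.65 (SE 0.18, adjusted p = 0.0282 by edgeR).

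Markers of other cell states moved with the groups, and their part in the values of L1Md_A and Lx2A was not tested. Their calls stand beside 17.6% of all genes higher and 16.2% lower. Of 8 genes of the 2C-like state 8 were higher, and their summed CPM of the gene table was 18.9 and 16.1 in WT and 158 and 47.8 in Pim3-/- ESCs. L1Md_A had 4408 and 4277 CPM of the TE table in Pim3-/- replicates 1 and 2, and its relation to this sum was not tested. Of 7 tested genes of primitive endoderm 6 were higher, with Foxa2 at 0 and 0 counts in WT against 5 and 7 in Pim3-/- ESCs, and the summed CPM of the 7 was 374 and 380 in WT and 433 and 465 in Pim3-/- ESCs. Most of this sum is Sparc, which was not called, and the other 6 genes summed to 14.7 and 22.1 CPM in WT and 158 and 151 CPM in Pim3-/- ESCs, with a median log2 fold change of 3.16 over the 7. Of 8 genes of pluripotent ESCs 1 was higher and 3 were lower, with summed CPM of 9348 and 8398 in WT and 5473 and 5101 in Pim3-/- ESCs. Pou5f1 was among the lower ones, with a log2 fold change of -1.12 (SE 0.22, adjusted p = 0.00993 by edgeR). Of 6 genes of fibroblasts 3 were tested and 1 was higher, with sums of the 3 between 24.3 and 28.9 CPM. Col3a1 had 1, 0, 0 and 0 counts and Col1a2 1, 3, 30 and 3.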

How the data were processed

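RNA-seq libraries of 2 WT and 2 Pim3-/- samples of E14 ESCs were analysed. Raw counts, not normalized, were deposited by the authors for each gene and each TE subfamily, and were used unchanged. By the paper's methods reads were trimmed with Cutadapt and mapped with Hisat2 to mm10, with Ensembl genes and RepeatMasker TEs, a legend names Squire for TE values, while the submitters' processing notes name Trim Galore, STAR, featureCounts and GRCm38. How reads with several locations were counted is not given in the sources used here. Such a choice sets how reads are divided among near-identical L1 subfamilies. The kit was an mRNA kit with random priming.

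In edgeR 4.0.16, filterByExpr removed low counts (at least 10 per library and 15 in total were its settings), leaving 828 TEs and 18444 genes. Counts were scaled by TMM within each table, and edgeR's quasi-likelihood test compared the groups over all TEs or all genes, with Benjamini-Hochberg adjustment. DESeq2 1.42.0 was an alternative, as were other scalings and filters, a replicate block and fits that left out 1 library. The test was checked on simulated counts. R 4.3.3, Python 3.11.15 and matplotlib 3.10.9 were used.

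The members, the gene lists and the tests were chosen with earlier results of these data known. Members named with values are those past an adjusted p of 0.05, L1Md_A, L1Md_T and L1Md_Gf, the 6 with the most counts, and the highest and lowest log2 fold change of each class, beside L1_Mm and MERVL-int. Of the control genes, called genes, L1td1 and the gene with the highest CPM of each group are named. The values of 1 called control gene are not reported here.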

Additional observations from a re-analysis of the deposited data

How the results depend on the processing

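L1Md_A was called in 11 of 13 alternatives and Lx2A in 10 of 13, with log2 fold changes from 0.58 to 1.42 and from 0.95 to 1.73, and adjusted p up to 0.296 and 0.391. Members called higher, 2 as reported, numbered 1 with DESeq2's Wald test (15 of all TEs), 4 with TE totals (70), 10 with the factors of the gene table (174), 4 (48) when that fit took its prior degrees of freedom from the scaling within TEs, and 35 with gene totals (542), and 0 to 6 with 1 library left out. Members called lower, 0 as reported, numbered 0 to 4 with 1 library left out. In fits with gene scaling, the block, or a Pim3-/- library left out, the prior degrees of freedom were infinite, so that calls are not comparable, and a lone library was assumed to vary like the other group. Same-numbered samples shared only a number (correlation of their deviations 0.02 over TEs). With the replicate number as a block (replicate block) 2 members (63 of all TEs) were called lower, L1_Mus1 and Lx2B, and the 2 called higher were kept. The median of L1Md, 0.19, was 0.38 with TE totals, 0.46 with gene-table factors and 0.92 with gene totals, and 0.059 to 0.34 with 1 library left out. The median of Lx, -0.06, became 0.12, 0.21 and 0.66 with these scalings. The difference between these medians, 0.25, ranged from 0.10 to 0.41 with 1 library left out. Signs also turned for members near 0. With TE totals, gene-table factors and gene totals in turn, L1Md_F2 became 0.17, 0.26 and 0.71, L1_Mus2 0.17, 0.26 and 0.71, L1_Mus3 0.015, 0.10 and 0.55, Lx8 0.11, 0.20 and 0.64, and L1VL2 0.12, 0.20 and 0.64. L1_Mur3 became 0.077 and 0.53 with the last 2 of these, and with gene totals alone L1_Mus1 became 0.43, L1Md_F 0.35 and Lx2B 0.27. With at least 10 counts in every library L1Md_F2 became 0.014 and L1_Mus2 0.017. With 1 library left out L1Md_F2 ranged from -0.12 to 0.10, L1_Mus2 from -0.091 to 0.071, L1VL2 from -0.34 to 0.16, L1VL4 from -0.0060 to 0.32 and L1_Mur1 from -0.15 to 0.16. The LINE-1 control genes, 8 higher and 9 lower, became 18 and 1 with totals of the gene table, and ranged from 2 to 14 higher and from 1 to 17 lower with 1 library left out. The causes were not tested. At 2 libraries per group, the thinly counted L1Md_Gf, Lx2A and L1VL1 are the least certain members.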
